A study of Homo sapiens with 9 samples.

Results

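Expressed genes named as long intergenic non-coding RNAs (LINC symbols), small nucleolar RNA host genes (SNHG symbols) or microRNA host genes were examined in MDA-MB-231 cells, a human triple-negative breast cancer line with mesenchymal features. The symbols had to carry a mean of at least 0 over the 9 libraries in log2 CPM (counts scaled to library size, on a log2 scale), and 1 row was kept per symbol, the one with the highest mean. Of 29 symbols that matched by name (28 LINC, 1 SNHG and 0 microRNA host symbols), 10 met the threshold, among 25245 symbols in 27548 rows, of which 13484 rows had a mean of 0 or more. The 10 members were SNHG32, LINC01145, LINC00869, LINC00888, LINC01881, LINC02210, LINC00680, LINC01347, LINC00674 and LINC01085, and they held 14 rows. The members were thus chosen by their mean level over all 9 libraries, which is given as a description only. The means just inside were 0.91 for LINC01347, 0.58 for LINC00674 and 0.07 for LINC01085, and those just outside were -1.52 for LINC00672, -1.55 for LINC01667 and -1.62 for LINC02495. LINC01085 was the 1 member with a group mean below 0, and 0 of the 19 symbols below the threshold reached 0 in any library.

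RNA sequencing had been carried out on 3 groups of 3 libraries. TLX-overexpressing cells transfected with an siRNA against TLX (TLX+siTLX) were libraries S7 to S9, TLX-overexpressing cells with a control siRNA (TLX+siCTL) were S4 to S6, and control cells with the control siRNA (CTL+siCTL) were S1 to S3. All groups carried an siRNA, transfected with DharmaFECT 4 and left for 48 h, and poly(A) RNA was sequenced with a strand-specific kit. TLX is the orphan nuclear receptor encoded by NR2E1, which mostly represses transcription. How TLX was introduced, and whether the lines are clones or pools, is not stated in the labels, so other differences between the TLX and the control cells cannot be told apart from TLX. PC3, the name of a prostate line, stands without explanation in the control samples' titles. Nothing in the labels says whether the 3 libraries of a group came from separate cultures, so the p-values rest on a spread that may be technical.

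Long non-coding RNAs are transcripts, usually spliced and polyadenylated, that carry no long conserved reading frame. Host genes of small nucleolar RNAs (snoRNAs) release from their introns short RNAs that guide methylation or pseudouridylation of ribosomal RNA, and their spliced exons are often removed by nonsense-mediated decay. Many other LINC genes lie in duplicated stretches of the genome or began as copies of coding genes, so their transcripts can share sequence with paralogs. In bulk RNA a lower level can come from fewer expressing cells or from less RNA per cell, and these cannot be told apart.

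The name of the group held only in part. In RefSeq all 10 members are long non-coding RNA genes, where LINC00888 is listed as SNHG33. In GENCODE 29, 9 of the 10 were transcribed pseudogenes: LINC02210 a unitary one, LINC01085 a processed one and the other 7 unprocessed copies. SNHG32 was annotated there under its older symbol C6orf48 as a protein-coding gene. Its 4 rows carried identifiers outside the primary assembly, and 3 of them held identical values, so how its reads were divided between copies is unknown and its absolute level is uncertain. The table held rows for 18149 of 19951 protein-coding genes of GENCODE 29 and for 679 of 884 transcribed unprocessed pseudogenes, but for 16 of 7629 genes typed as lincRNA and 1 of 5583 antisense genes. Of 33 widely studied non-coding RNAs outside the name rule, such as MALAT1 and NEAT1, TUG1 and TINCR were analysed and the others were not analysed here. By this annotation the 10 members are mostly loci of pseudogene type.

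Effective library sizes, read from the steps between low values, were 73.8 to 91.8 M reads, and a log2 CPM of 0 stands for 1 read per M reads. At these sizes only 32.5% to 34.2% of the low values stood at whole reads, so the sizes are approximate. The floor of the table, with an assumed prior count of 2, gave a mean of 80.5 M reads. NR2E1 checked the labels: its mean log2 CPM was -2.59 ± 0.82 in TLX+siTLX, -0.11 ± 0.63 in TLX+siCTL and -4.46 ± 0.16 in CTL+siCTL (SD, n = 3 each), near the floor of the table in control cells. Of the markers of MDA-MB-231, VIM, CD44, AXL, MSN and CAV1 had group means from 7.02 to 10.7, while SPARC had -2.14, -3.77 and -3.57 in TLX+siTLX, TLX+siCTL and CTL+siCTL. The prostate markers KLK3 and FOLH1 had group means from -5.33 to -4.01 in the same libraries, TMPRSS2 stood between -0.53 and 0.25, and STEAP2 was measured at 3.11 to 3.29.

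SNHG32 and LINC00888 are the members with snoRNA genes inside them on the same strand, and the snoRNA sequences are shown because they are the known product of a host gene. SNHG32 (C6orf48, GRCh38 chromosome 6, 31834608 to 31839766, plus strand) contained SNORD48 and SNORD52, C/D box snoRNAs that guide ribose methylation. LINC00888 (chromosome 3, 183447608 to 183456013, plus strand) contained SNORA63D, an H/ACA box snoRNA of the class that guides pseudouridylation. It also contained 3 further genes annotated as snoRNAs, which are named there only by family numbers. The sequences were read 5′ to 3′ from the GENCODE 29 transcripts, with the C box TGATGA and the D box CTGA in capitals in the C/D box RNAs and the ACA near the 3′ end in capitals in SNORA63D. SNORD48 lies at chr6:31835263-31835326, SNORD52 at chr6:31837076-31837142 and SNORA63D at chr3:183451857-183451988.
SNORD48: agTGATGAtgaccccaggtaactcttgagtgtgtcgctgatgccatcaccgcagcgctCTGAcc
SNORD52: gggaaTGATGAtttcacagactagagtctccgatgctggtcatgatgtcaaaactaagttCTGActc
SNORA63D: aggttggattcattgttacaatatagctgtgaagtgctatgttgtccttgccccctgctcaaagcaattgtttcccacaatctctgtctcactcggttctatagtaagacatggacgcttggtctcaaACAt
The values below are those of the host transcripts. The snoRNAs themselves lack a poly(A) tail and were not analysed here.

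The promoters of LINC01145 and LINC00869 are shown because part of their sequence is nearly identical. The window of each holds 250 bases before and 50 bases after the RefSeq start (GRCh38.p14), that of LINC01145 at chr1:145216003-145216302 on the minus strand and that of LINC00869 at chr1:149606762-149607061 on the plus strand. A run of 152 bases, in capitals, was identical in both, and 180 bases aligned without gaps with 2 mismatches. The run stood at bases 1 to 152 of the LINC01145 window and at bases 121 to 272 of the LINC00869 window. It therefore lay wholly before the start of LINC01145 but spanned that of LINC00869.
LINC01145: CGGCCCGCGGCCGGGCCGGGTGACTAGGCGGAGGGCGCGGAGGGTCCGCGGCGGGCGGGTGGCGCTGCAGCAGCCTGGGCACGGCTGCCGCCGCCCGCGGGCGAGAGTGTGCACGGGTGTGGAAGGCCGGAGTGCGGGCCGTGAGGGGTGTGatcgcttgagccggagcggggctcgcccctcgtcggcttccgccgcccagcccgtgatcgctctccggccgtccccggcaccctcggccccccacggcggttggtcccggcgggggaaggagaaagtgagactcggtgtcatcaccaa
LINC00869: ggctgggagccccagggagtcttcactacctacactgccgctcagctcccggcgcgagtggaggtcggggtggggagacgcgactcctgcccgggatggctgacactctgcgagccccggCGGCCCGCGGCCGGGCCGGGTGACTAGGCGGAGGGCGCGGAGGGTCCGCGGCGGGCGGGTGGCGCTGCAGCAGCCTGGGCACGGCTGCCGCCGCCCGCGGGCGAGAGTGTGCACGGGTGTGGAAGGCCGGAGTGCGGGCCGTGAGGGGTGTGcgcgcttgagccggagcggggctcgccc
RefSeq windows were found for 7 of the 10 members. The first windows of LINC02210 (chr17:45620079-45620378, plus strand) and LINC00888 (chr3:183447358-183447657, plus strand) are shown as examples of members whose transcripts shared little sequence with other genes. That of LINC01085, which shared 0% over all transcripts, is not shown. Capitals mark CCAAT, the core letters read by the factor NF-Y, or its reverse complement ATTGG.
LINC02210: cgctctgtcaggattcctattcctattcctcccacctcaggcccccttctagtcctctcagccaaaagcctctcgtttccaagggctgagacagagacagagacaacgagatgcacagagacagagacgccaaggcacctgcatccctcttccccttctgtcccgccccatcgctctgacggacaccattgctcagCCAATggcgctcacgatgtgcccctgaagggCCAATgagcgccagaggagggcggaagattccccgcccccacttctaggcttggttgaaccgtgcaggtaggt
LINC00888: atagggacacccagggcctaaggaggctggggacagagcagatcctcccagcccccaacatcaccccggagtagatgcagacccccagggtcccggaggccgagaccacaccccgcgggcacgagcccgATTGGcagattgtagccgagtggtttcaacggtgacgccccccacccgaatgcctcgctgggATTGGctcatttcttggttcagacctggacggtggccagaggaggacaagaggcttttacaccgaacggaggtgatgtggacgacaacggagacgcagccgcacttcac
LINC02210 carried CCAAT 54 and 23 bases before its start, and LINC00888 carried the reverse complement 121 and 59 bases before it. Counted from its start, LINC01085 carried CCAAT at position -190 and the reverse complement at positions -214 and -84. Matches stood in 4 of the 9 windows of the members, those of these 3 genes, 2 of them windows of LINC00888. CCAAT, added to the search after the sequences had been seen, was present on either strand in 34.6% of 35116 windows of all genes. The core word AAGTCA read by TLX (12.5% of all windows), the E-box CACGTG (7.26%) and the E2F words TTTCCCGC (1.63%) and TTTGGCGC (0.652%) were searched on both strands and matched in 0 of the 9 member windows. None of these 5 words is contained in another, and a missing match says only that these letters are not in these windows.

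Over the 3 groups 8 of the 10 members changed by limma's moderated F test, where the 2 others, LINC00674 and LINC01347, did not pass. The test called 40.7% of all rows, 73.3% of the rows with a mean of 0 or more, and 54.3% of 256 other transcribed pseudogenes with such a mean. The members' share was therefore close to that of other expressed rows. LINC01881, LINC02210 and LINC00888 were lower in both TLX groups than in control cells, LINC00869 was highest in TLX+siCTL, and LINC01085 was lowest there.

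**Figure D1:**
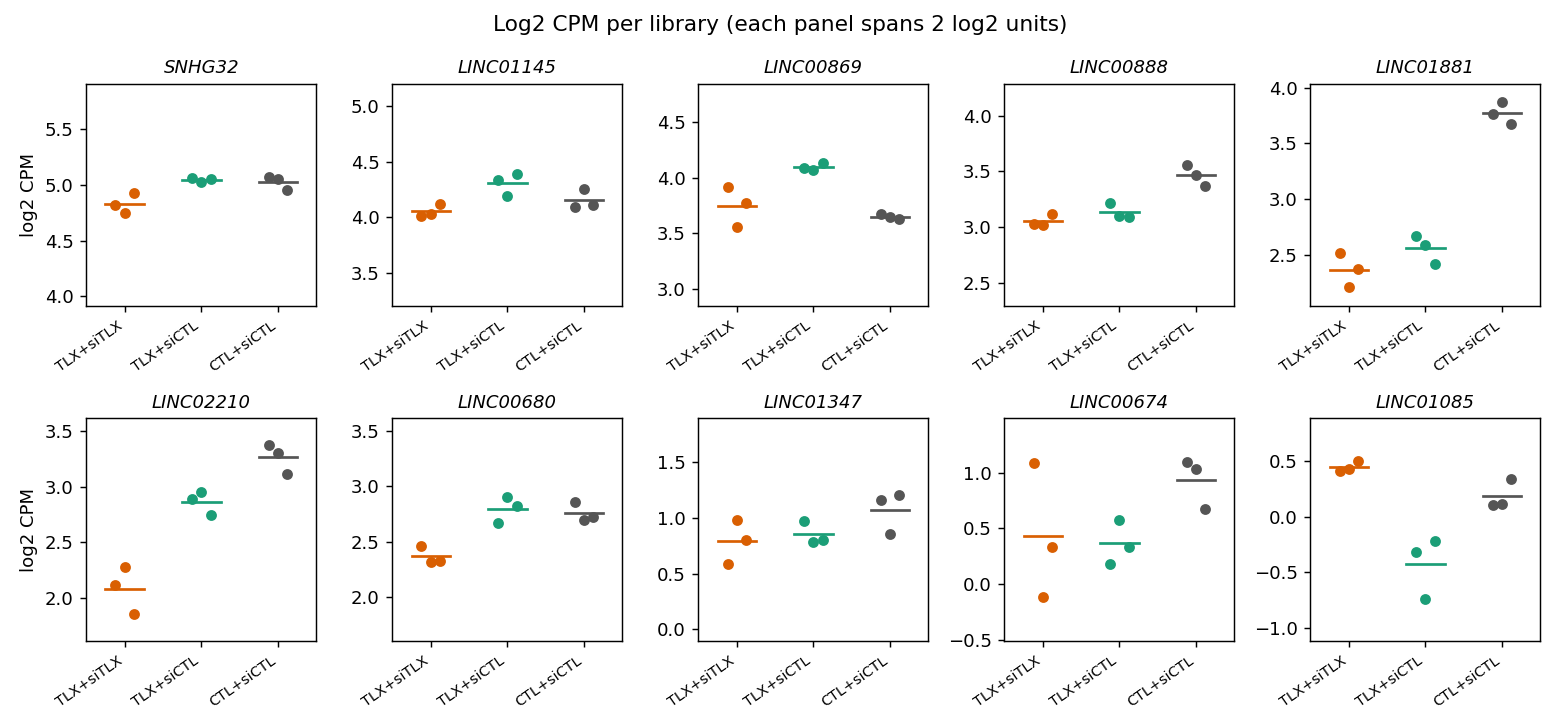
Log2 CPM of the 10 members in each library (points) with the group mean (line), for TLX+siTLX, TLX+siCTL and CTL+siCTL from left to right; every panel spans 2 log2 units around its own level. LINC01881 in TLX+siTLX and TLX+siCTL stands more than 1 log2 unit under CTL+siCTL, and LINC02210 is lowest in TLX+siTLX and highest in CTL+siCTL.

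TLX+siCTL against CTL+siCTL addresses the cells with raised TLX and a control siRNA. LINC01881 fell the most, LINC02210, LINC00888 and LINC01085 fell by less, and LINC00869 rose. By limma with Benjamini-Hochberg adjustment over all rows, 1 of 10 members rose and 4 fell, against 15% of all rows higher and 15.1% lower. Among rows with a mean of 0 or more 28.2% were higher and 26.9% lower, and among the other transcribed pseudogenes 18% and 20.7%, so these counts did not stand far from the background. The median log2 fold change of the members was -0.27, beside 0 over all rows. In 6 of 10 members the groups did not overlap, which held in 41.4% of all rows and 70.2% of those with a mean of 0 or more.

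TLX+siTLX against TLX+siCTL asks what followed the siRNA against TLX in the overexpressing cells. LINC02210, LINC00680, LINC00869, LINC01145 and SNHG32 fell, and LINC01085 rose. The count was 1 higher and 5 lower of 10, against 12.7% higher and 10.9% lower over all rows, 23.4% and 21% over rows with a mean of 0 or more, and 7.42% and 19.9% over the other transcribed pseudogenes. The 5 lower members were a larger share than in these backgrounds, with 10 members and no test of the difference. The median was -0.20, beside 0 over all rows and -0.06 over the transcribed pseudogenes. Groups did not overlap in 6 of 10 members, against 33.9% of all rows and 57.3% of rows with a mean of 0 or more.

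TLX+siTLX against CTL+siCTL sets the siRNA-treated TLX cells beside control cells. LINC01881, LINC02210, LINC00888, LINC00680 and SNHG32 fell, and 0 members rose. By limma 0 members were higher at an adjusted p and 0 at an unadjusted p under 0.05, and the authors' deposited table also gave 0. The background was 17.7% higher and 17% lower over all rows, 31.6% and 30.4% over rows with a mean of 0 or more, and 18% and 30.1% over the other transcribed pseudogenes. The members' median was -0.34, beside 0 over all rows and -0.08 over the transcribed pseudogenes. Groups did not overlap in 6 of 10 members, against 42.2% of all rows and 69.9% of rows with a mean of 0 or more. The 3 comparisons share libraries in pairs, so their values for a member are not independent.

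**Figure D2:**
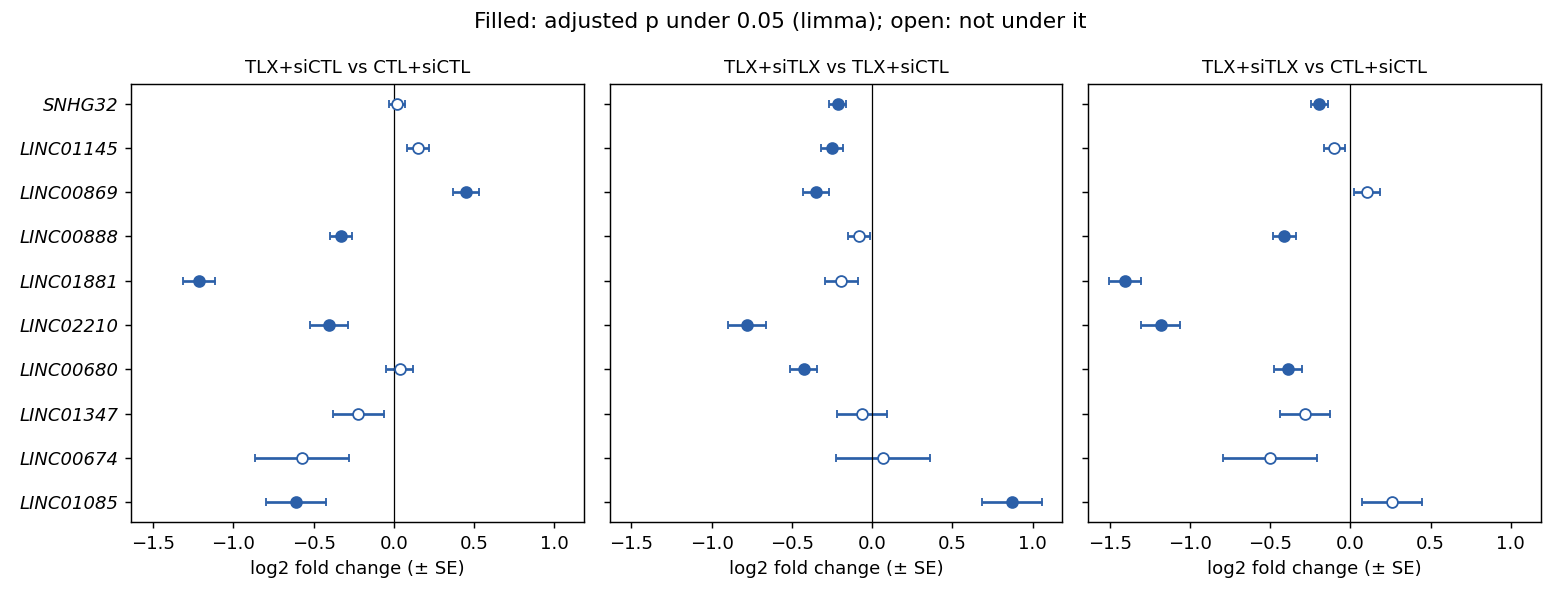
Log2 fold change (point) and standard error (bar) of each member in the 3 comparisons, from left to right TLX+siCTL vs CTL+siCTL, TLX+siTLX vs TLX+siCTL and TLX+siTLX vs CTL+siCTL; filled points have an adjusted p under 0.05 by limma. LINC01881 lies at -1.21 and -1.40 in the outer panels, and LINC01085 at 0.87 is the 1 filled point right of 0 in the middle panel.

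Both snoRNA hosts, SNHG32 and LINC00888, fell in TLX+siTLX against CTL+siCTL. SNHG32 had a log2 CPM of 4.82, 4.75 and 4.92 in TLX+siTLX, 5.06, 5.02 and 5.05 in TLX+siCTL, and 5.07, 5.05 and 4.95 in CTL+siCTL. Every TLX+siTLX library lay below every library of the other groups. The log2 fold change of SNHG32 was -0.21 ± 0.05 (SE, limma adjusted p = 0.0177) in TLX+siTLX against TLX+siCTL and -0.19 ± 0.05 (adjusted p = 0.0190) against CTL+siCTL. In TLX+siCTL against CTL+siCTL it was 0.02 with a 95% interval of -0.10 to 0.14. Both calls were close to the threshold and were lost without an intensity trend. The call against TLX+siCTL was also lost without S4, S6 or S8 (adjusted p up to 0.0603), and that against CTL+siCTL without S1, S2, S7 or S8 and in a fit of the 2 groups alone (up to 0.0676).

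LINC00888 had a log2 CPM of 3.02, 3.02 and 3.12 in TLX+siTLX, 3.22, 3.10 and 3.09 in TLX+siCTL, and 3.56, 3.47 and 3.37 in CTL+siCTL. All 6 libraries of the TLX cells lay below the 3 control libraries, while the TLX groups overlapped. LINC00888 fell in TLX+siCTL against CTL+siCTL (-0.33 ± 0.07, limma adjusted p = 0.00606) and in TLX+siTLX against CTL+siCTL (-0.41 ± 0.07, adjusted p = 0.00145). Between TLX+siTLX and TLX+siCTL its log2 fold change was -0.08, with a 95% interval of -0.24 to 0.08. Its pseudogene transcript of 421 bases shared 0% of its 31-base words with any other annotated gene, and the call against control cells held under every alternative fit.

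Genes of the proteins that package snoRNAs were mostly higher in TLX+siCTL than in control cells. Of 13 snoRNP core and assembly genes, 10 were higher and 1 lower in TLX+siCTL against CTL+siCTL, 1 higher and 6 lower in TLX+siTLX against TLX+siCTL, and 6 higher and 1 lower in TLX+siTLX against CTL+siCTL. The shares over rows with a mean of 0 or more were 28.2% higher and 26.9% lower, 23.4% higher and 21% lower, and 31.6% higher and 30.4% lower in the same order. The genes' medians were 0.31, -0.08 and 0.07, beside 0 over all rows. DKC1, the pseudouridine synthase of H/ACA particles, had a log2 fold change of 1.21 ± 0.09 and NHP2, another H/ACA core protein, 0.79 ± 0.08 in TLX+siCTL against CTL+siCTL (limma adjusted p = 1.16e-05 and 7.55e-05). NOP10, also of the H/ACA core, fell by 0.35 ± 0.04 there (adjusted p = 0.000286). In TLX+siTLX against TLX+siCTL, NOP56 of the C/D core rose by 0.46 ± 0.07 (adjusted p = 0.00119), and NOP10 (-0.28 ± 0.04, adjusted p = 0.00175) and the assembly factor SHQ1 (-0.29 ± 0.09, adjusted p = 0.0410) fell. In TLX+siTLX against CTL+siCTL the methyltransferase FBL had 0.82 ± 0.05 (adjusted p = 3.49e-06).

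Of 14 genes of nonsense-mediated decay, the pathway that degrades many host gene exons, 6 were higher and 1 lower in TLX+siCTL against CTL+siCTL, 2 higher and 7 lower in TLX+siTLX against TLX+siCTL, and 3 higher and 4 lower in TLX+siTLX against CTL+siCTL, with medians of 0.02, -0.20 and -0.02. Beside the 28.2% higher and 26.9% lower, 23.4% higher and 21% lower, and 31.6% higher and 30.4% lower of rows with a mean of 0 or more, the 7 lower genes after the siRNA were a larger share, with no test of the difference, and the 3 higher and 4 lower in TLX+siTLX against CTL+siCTL were near or below the background. The kinase SMG1 and its partner SMG8 fell after the siRNA against TLX (-0.50 ± 0.09 and -0.45 ± 0.04, limma adjusted p = 0.00291 and 8.04e-05), while the exon junction proteins RBM8A and CASC3 rose (0.24 ± 0.06 and 0.16 ± 0.03, adjusted p = 0.0215 and 0.00699). In TLX+siCTL against CTL+siCTL, UPF3B rose by 0.61 ± 0.08 (adjusted p = 0.000549). Many snoRNA host genes start transcription with a pyrimidine-rich 5′ TOP sequence that they share with translation genes. The 14 genes of that class were 8 higher and 2 lower, 4 higher and 1 lower, and 7 higher and 2 lower in the same order, with medians of 0.17, 0.01 and 0.18. Against those backgrounds the 8 and 7 higher genes were larger shares, again untested. The 4 higher after the siRNA were near the background and the 1 lower was below it. EEF1A1, an elongation factor, had 0.58 ± 0.09 in TLX+siCTL against CTL+siCTL (adjusted p = 0.000866), and EIF3E fell by 0.56 ± 0.05 after the siRNA (adjusted p = 8.06e-05). Whether any of these genes bear on the host transcripts was not tested.

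LINC02210 (chromosome 17, 45620328 to 45655156, plus strand; older symbol CRHR1-IT1) passed the threshold in all 3 comparisons, lower each time. Its log2 CPM was 2.12, 2.28 and 1.86 in TLX+siTLX, 2.89, 2.95 and 2.75 in TLX+siCTL, and 3.37, 3.31 and 3.12 in CTL+siCTL. The 3 groups did not overlap. Another row of this symbol, with an identifier outside the primary assembly, had a mean of 2.72 over the 9 libraries. How reads were divided between the 2 rows is unknown, so the absolute level of LINC02210 is uncertain. That row had log2 fold changes of -0.40 ± 0.12 in TLX+siCTL and -1.16 ± 0.12 in TLX+siTLX against CTL+siCTL. Between the TLX groups it had -0.76 ± 0.12. LINC02210 fell by 0.78 ± 0.12 in TLX+siTLX against TLX+siCTL (limma adjusted p = 0.00166) and by 1.18 ± 0.12 against CTL+siCTL (adjusted p = 6.48e-05). The smaller difference of -0.40 ± 0.12 in TLX+siCTL against CTL+siCTL (adjusted p = 0.0323) was lost under quantile normalization and without any 1 of S1, S2, S4, S5, S6 and S7, with adjusted p up to 0.123. Its 2-exon pseudogene transcript of 288 bases shared 0% of its words with other genes, and over all its transcripts 10.1% were shared, most with KANSL1 (2.99%). KANSL1 had log2 fold changes of -0.11 ± 0.17 in TLX+siCTL and -0.56 ± 0.17 in TLX+siTLX against CTL+siCTL (limma adjusted p = 0.684 and 0.0308). Between TLX+siTLX and TLX+siCTL it had -0.45 ± 0.17 (adjusted p = 0.0991). PLEKHM1, the nearest expressed coding gene at 129579 bases, passed the threshold in none of the 3 comparisons (adjusted p from 0.608 to 0.937).

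LINC01881 (chromosome 2, 242088633 to 242160153, plus strand, near the end of the long arm) showed the largest change of the members. Its log2 CPM was 2.52, 2.21 and 2.38 in TLX+siTLX, 2.67, 2.59 and 2.42 in TLX+siCTL, and 3.77, 3.87 and 3.67 in CTL+siCTL. All TLX libraries were at least 1 log2 unit below all control libraries, and the TLX groups overlapped. LINC01881 fell by 1.21 ± 0.10 in TLX+siCTL (limma adjusted p = 3.09e-05) and by 1.40 ± 0.10 in TLX+siTLX (adjusted p = 8.79e-06) against CTL+siCTL. In the authors' deposited table its signed fold changes were -2.32 and -2.65. TLX+siTLX against TLX+siCTL gave -0.19 with a 95% interval of -0.42 to 0.04, which passed the threshold under quantile normalization (-0.32, adjusted p = 0.0399).

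The sequence of LINC01881 is repeated near other chromosome ends. Over all its transcripts, 67.6% of its words were shared, with 2107 other genes. Of the words of its pseudogene transcript, 48.4% occurred in 13 other genes, among them FBXO25 with 22.3%. Which of these copies the reads came from cannot be told apart here. FBXO25, a coding gene of the F-box family, had log2 fold changes of -0.16 ± 0.05 (adjusted p = 0.0522) in TLX+siCTL and -0.31 ± 0.05 (adjusted p = 0.00172) in TLX+siTLX against CTL+siCTL, both smaller than those of LINC01881. AL669831.4, the gene with the highest share of those words (26.4%), had -0.58 ± 0.62 and -0.66 ± 0.62 in the same comparisons and did not pass the threshold (adjusted p = 0.554 and 0.477). AP006222.1, with 0.524% of those words, fell by 0.91 ± 0.07 and 1.11 ± 0.07 there (limma adjusted p = 2.03e-05 and 4.08e-06). In TLX+siTLX against TLX+siCTL it had -0.21 ± 0.07 (adjusted p = 0.0705). AL669831.3, with 37.2% of the words of all transcripts, had 0.01 ± 0.52 and 0.53 ± 0.52 against CTL+siCTL and did not pass. D2HGDH, a mitochondrial dehydrogenase gene 319817 bases away, fell by 1.53 ± 0.16 in TLX+siCTL against CTL+siCTL (adjusted p = 0.000128) but rose by 1.04 ± 0.16 in TLX+siTLX against TLX+siCTL (adjusted p = 0.00196), where LINC01881 did not pass the threshold.

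**Figure D3:**
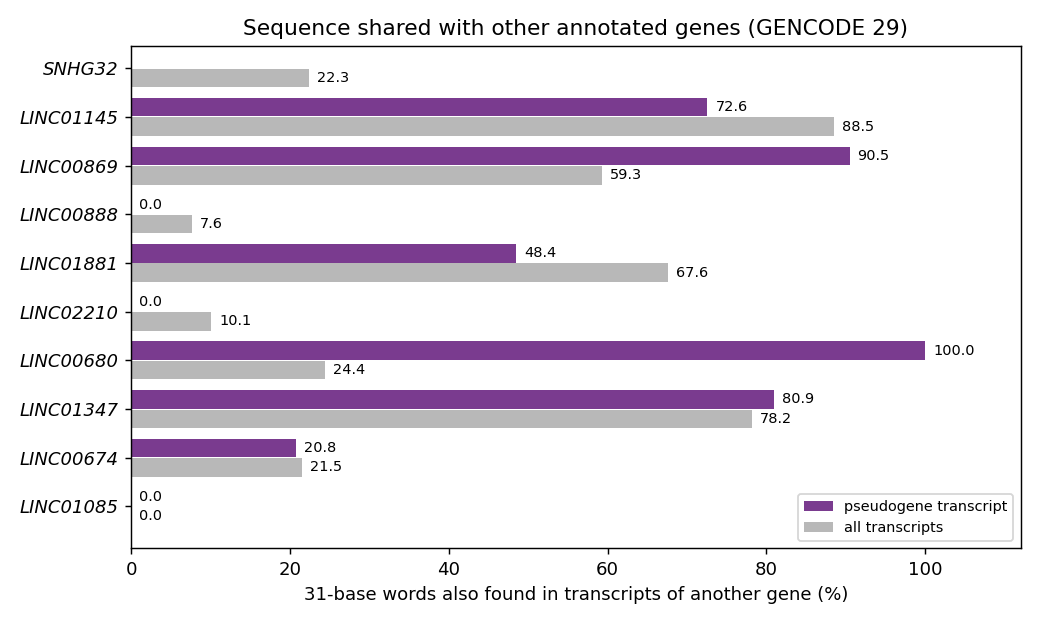
Percentage of 31-base words of each member that also occur in transcripts of another GENCODE 29 gene, for the pseudogene transcript (purple) and for all transcripts (grey); SNHG32 has no pseudogene transcript. LINC00888, LINC02210 and LINC01085 share 0% in the pseudogene transcript, while LINC00680 and LINC00869 share 100% and 90.5%.

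LINC00869 and LINC01145, both on chromosome 1 near its centromere, carry much sequence of other genes. LINC00869 (149606334 to 149679523, plus strand; older symbol FAM91A2) had a log2 CPM of 3.92, 3.56 and 3.77 in TLX+siTLX, 4.09, 4.07 and 4.13 in TLX+siCTL, and 3.67, 3.64 and 3.63 in CTL+siCTL. Every TLX+siCTL library lay above all others. LINC00869 rose by 0.45 ± 0.08 in TLX+siCTL against CTL+siCTL (limma adjusted p = 0.00285) and fell by 0.35 ± 0.08 in TLX+siTLX against TLX+siCTL (adjusted p = 0.0149). In TLX+siTLX against CTL+siCTL it was 0.10 with a 95% interval of -0.085 to 0.29. The fall was lost without S4, without S6 and in a fit of its 2 groups alone (adjusted p up to 0.0734), and without S8 the last difference passed the threshold (0.20, adjusted p = 0.0292).

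FAM91A1, the coding gene of the family, shared 14.1% of the words of all LINC00869 transcripts. It was not among the 3 genes that share words with the pseudogene transcript. Its log2 fold changes were of nearly the same size as those of LINC00869. They were 0.50 ± 0.07 (limma adjusted p = 0.000751), -0.42 ± 0.07 (0.00338) and 0.09 ± 0.07 (0.429) in TLX+siCTL against CTL+siCTL, TLX+siTLX against TLX+siCTL and TLX+siTLX against CTL+siCTL. The mean log2 CPM of FAM91A1 was 7.49 ± 0.16 in TLX+siTLX, 7.91 ± 0.06 in TLX+siCTL and 7.40 ± 0.01 in CTL+siCTL (SD, n = 3 each), above that of LINC00869 in every library. Other genes that share words with LINC00869 differed from one another in direction. FAM91A2P (26.9% of the words of all transcripts) had -1.06 ± 0.63, 0.53 ± 0.63 and -0.53 ± 0.63 in the same order, and FAM91A3P (20.9%) had -0.17 ± 0.32, 0.83 ± 0.32 and 0.66 ± 0.32. AC241377.4, with 71.9% of the words of the pseudogene transcript, had 1.01 ± 0.58, -0.75 ± 0.58 and 0.26 ± 0.58, with the signs of LINC00869. None of these 3 genes passed the threshold in any comparison, and their mean log2 CPM was -4.50, -3.21 and -3.88. At such low levels, with these standard errors, a change of the size seen in LINC00869 could be missed. AC245100.4 (34.6%) fell in TLX+siTLX against CTL+siCTL, by 0.65 ± 0.19 (adjusted p = 0.0273). AC243772.3 (8.69% of the words of all transcripts) had a mean log2 CPM of -3.98. It fell in TLX+siTLX against TLX+siCTL, by 1.82 ± 0.55 (adjusted p = 0.0430). The part of FAM91A1 reads in the values of LINC00869 was not tested.

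**Figure D4:**
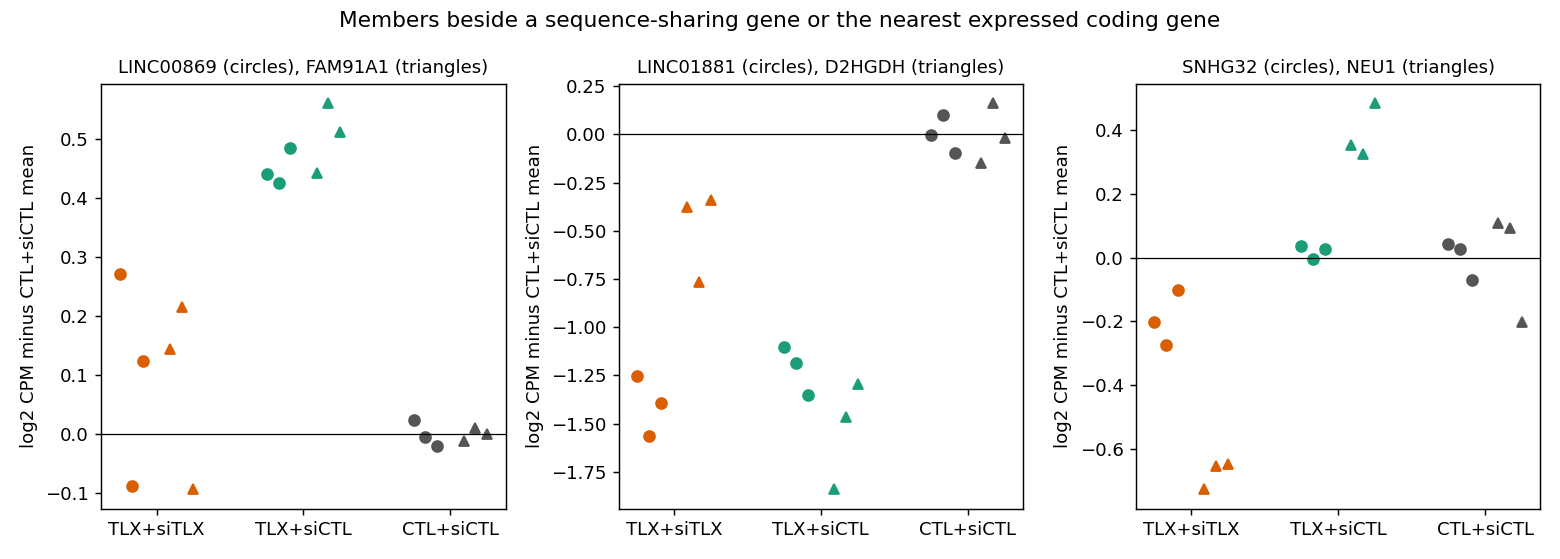
Log2 CPM minus the CTL+siCTL mean in each library of TLX+siTLX, TLX+siCTL and CTL+siCTL, for 3 members (circles) beside FAM91A1, D2HGDH and NEU1 (triangles). LINC00869 and FAM91A1 are both highest in TLX+siCTL, D2HGDH is lower in TLX+siCTL than in TLX+siTLX where LINC01881 is low in both, and NEU1 changes more than SNHG32.

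LINC01145 (145164099 to 145216058, minus strand) had a log2 CPM of 4.01, 4.03 and 4.12 in TLX+siTLX, 4.34, 4.19 and 4.39 in TLX+siCTL, and 4.09, 4.26 and 4.11 in CTL+siCTL. Each TLX+siTLX library was below each TLX+siCTL library, and the control libraries overlapped with both groups. LINC01145 fell by 0.25 ± 0.07 in TLX+siTLX against TLX+siCTL (limma adjusted p = 0.0281), a call lost without S4, S6, S7 or S8, without an intensity trend and in a fit of the 2 groups alone (adjusted p up to 0.100). Its other differences were 0.15 (95% interval -0.0044 to 0.31) for TLX+siCTL and -0.10 (-0.25 to 0.06) for TLX+siTLX against CTL+siCTL. Over all transcripts 88.5% of its words were shared, 74.9% with LINC02591 alone. AC244669.1, which shares 72.6% of the words of its pseudogene transcript, had log2 fold changes of 0.37 ± 0.09, -0.20 ± 0.09 and 0.18 ± 0.09 (adjusted p = 0.0144, 0.182 and 0.200) in TLX+siCTL against CTL+siCTL, TLX+siTLX against TLX+siCTL and TLX+siTLX against CTL+siCTL.

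LINC00680 (chromosome 6, 57946074 to 57961501, minus strand) lies beside a pseudogene of the beta-glucuronidase gene and forms a readthrough transcript with it. Its log2 CPM was 2.46, 2.32 and 2.33 in TLX+siTLX, 2.67, 2.90 and 2.82 in TLX+siCTL, and 2.86, 2.70 and 2.72 in CTL+siCTL. The TLX+siTLX libraries lay below the other 6. LINC00680 fell by 0.43 ± 0.09 against TLX+siCTL (limma adjusted p = 0.00689) and by 0.39 ± 0.09 against CTL+siCTL (adjusted p = 0.00676), and both calls held under every alternative fit. TLX+siCTL against CTL+siCTL gave 0.04 with a 95% interval of -0.16 to 0.23. All 100% of the words of its pseudogene transcript of 181 bases occur in the readthrough LINC00680-GUSBP4, and 25.8% in GUSBP1. GUSBP1 had log2 fold changes of -0.33 ± 0.11, -0.13 ± 0.11 and -0.45 ± 0.11 (adjusted p = 0.0563, 0.496 and 0.0116) in TLX+siCTL against CTL+siCTL, TLX+siTLX against TLX+siCTL and TLX+siTLX against CTL+siCTL.

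LINC01085, LINC00674 and LINC01347 were the 3 members nearest the level threshold. LINC01085 (chromosome 4, 14111968 to 14140052, plus strand), a processed copy with 0% shared words, had a log2 CPM of 0.41, 0.43 and 0.50 in TLX+siTLX, -0.32, -0.74 and -0.22 in TLX+siCTL, and 0.10, 0.12 and 0.34 in CTL+siCTL. The 3 groups did not overlap. LINC01085 rose by 0.87 ± 0.19 in TLX+siTLX against TLX+siCTL (limma adjusted p = 0.00922), which held under every alternative fit. Its fall of 0.61 ± 0.19 in TLX+siCTL against CTL+siCTL (adjusted p = 0.0370) was lost without S1, S2, S3 or S5, under both other scalings and in a fit of the 2 groups alone (adjusted p up to 0.104). TLX+siTLX against CTL+siCTL gave 0.26 with a 95% interval of -0.16 to 0.69.

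LINC00674 (chromosome 17, 68101908 to 68115518, plus strand) had a log2 CPM of 1.09, -0.12 and 0.34 in TLX+siTLX, 0.18, 0.58 and 0.34 in TLX+siCTL, and 1.10, 1.04 and 0.67 in CTL+siCTL. The TLX+siTLX libraries spread over more than 1 log2 unit, with S7 at the level of control cells and S8 the lowest of all. None of its differences passed the threshold: -0.57 (95% interval -1.24 to 0.10), 0.07 (-0.60 to 0.74) and -0.50 (-1.17 to 0.17) in TLX+siCTL against CTL+siCTL, TLX+siTLX against TLX+siCTL and TLX+siTLX against CTL+siCTL. Without S7 the last was -0.83 (limma adjusted p = 0.0271). SMURF2, the ubiquitin ligase gene that shares 20.8% of the words of its pseudogene transcript, moved the other way, with 0.86 ± 0.06 in TLX+siCTL and 0.75 ± 0.06 in TLX+siTLX against CTL+siCTL (adjusted p = 1.36e-05 and 1.98e-05).

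LINC01347 (chromosome 1, 243056307 to 243101744, minus strand) had a log2 CPM of 0.59, 0.98 and 0.80 in TLX+siTLX, 0.98, 0.78 and 0.80 in TLX+siCTL, and 1.16, 0.86 and 1.20 in CTL+siCTL, with overlap between all groups. Its differences were -0.22 (95% interval -0.58 to 0.14), -0.06 (-0.42 to 0.29) and -0.28 (-0.64 to 0.07) in TLX+siCTL against CTL+siCTL, TLX+siTLX against TLX+siCTL and TLX+siTLX against CTL+siCTL, and none passed the threshold. Of the words of its pseudogene transcript 80.9% were shared with 20 genes, among them FAM157A (55.4%), which fell by 0.25 ± 0.05 in TLX+siTLX against TLX+siCTL (limma adjusted p = 0.00925) and by 0.31 ± 0.05 against CTL+siCTL (adjusted p = 0.00172). GTF2IP20, with the highest share (62.8%), had -0.27 ± 0.08, 0.03 ± 0.08 and -0.24 ± 0.08 in the same 3 comparisons (adjusted p = 0.0301, 0.876 and 0.0423). The sharing genes differed in direction. AL669831.1, also with 55.4%, had 0.17 ± 0.04, -0.07 ± 0.04 and 0.10 ± 0.04 in that order. Only the first passed the threshold (limma adjusted p = 0.0164). In TLX+siTLX against CTL+siCTL, GTF2IP13 (53.5%) rose by 0.38 ± 0.12 (adjusted p = 0.0381). FAM157B (52.9%) fell there by 0.53 ± 0.12 (adjusted p = 0.00821). At this depth differences of the size seen in FAM157A lie inside the intervals of LINC01347.

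The nearest expressed coding gene was compared with each member over the 3 comparisons, 30 pairs of values in all. Neighbours passed the threshold for 6 of 10 members in TLX+siCTL against CTL+siCTL, 6 in TLX+siTLX against TLX+siCTL and 7 in TLX+siTLX against CTL+siCTL, 19 in all. In either direction 55.1%, 44.4% and 62% of rows with a mean of 0 or more were called there, so these counts were near the background. Members passed in 16 of the 30. Of the 16, the neighbour also passed in 8, with the same direction in 5 and the opposite in 3, and with such backgrounds nothing is read from this overlap. NEU1, a lysosomal sialidase gene 17893 bases from SNHG32 on the other strand, fell by 1.06 ± 0.09 in TLX+siTLX against TLX+siCTL (limma adjusted p = 7.98e-05) and by 0.68 ± 0.09 against CTL+siCTL (adjusted p = 0.000423), and rose by 0.39 ± 0.09 in TLX+siCTL against CTL+siCTL (adjusted p = 0.0118). PRIM2, a DNA primase subunit gene 299225 bases from LINC00680, rose by 0.30 ± 0.05 in TLX+siTLX against TLX+siCTL (adjusted p = 0.00251) where LINC00680 fell. MCF2L2 beside LINC00888 and BOD1L1 beside LINC01085 passed in none of the 3 comparisons.

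TUG1, a non-coding RNA outside the name rule, had a mean log2 CPM of 7.77 ± 0.05 in TLX+siTLX, 7.86 ± 0.06 in TLX+siCTL and 7.77 ± 0.03 in CTL+siCTL (SD, n = 3 each), and passed the threshold in none of the 3 comparisons. TINCR, named for its part in epidermal differentiation, had -1.92 ± 0.93, -1.35 ± 0.31 and -0.44 ± 0.36 in the same order, and its log2 fold change of -1.48 ± 0.46 in TLX+siTLX against CTL+siCTL passed (limma adjusted p = 0.0344), while the F test over the 3 groups did not (adjusted p = 0.0736). Among 10 genes of microRNA processing, 2 were higher and 1 lower in TLX+siCTL against CTL+siCTL, 0 higher and 2 lower in TLX+siTLX against TLX+siCTL, and 2 higher and 4 lower in TLX+siTLX against CTL+siCTL, with medians of 0.04, -0.01 and -0.09. Of rows with a mean of 0 or more, 28.2% were higher and 26.9% lower, 23.4% and 21%, and 31.6% and 30.4% in the same order. The 4 lower genes in TLX+siTLX against CTL+siCTL were a somewhat larger share than the 30.4%, with no test of the difference. The other shares were near or below these backgrounds, so the counts are not a result about the list. AGO1, an Argonaute protein that binds microRNAs, fell by 0.60 ± 0.06 in TLX+siTLX against TLX+siCTL (adjusted p = 0.000138). Of 10 transcription factors known to act on host genes, such as E2F1 (1.64 ± 0.05 in TLX+siCTL against CTL+siCTL, adjusted p = 4.03e-07) and HIF1A (-0.83 ± 0.04, adjusted p = 2.00e-06), 4 were higher and 4 lower, 3 higher and 1 lower, and 4 higher and 4 lower in the same 3 comparisons, with medians of 0.05, -0.07 and -0.15. These counts, too, did not stand far from the same backgrounds.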

How the data were processed

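Poly(A) RNA of 9 libraries was sequenced. The deposited tables hold, made by the authors, log2 CPM values per gene with a prior count, and a table of comparisons with a score that is the authors' signed fold change and with the authors' p-values and FDR. The submitters' processing notes name kallisto 0.44.0, limma, edgeR and GRCh38, and the transcripts counted against are not stated there. Gene identifiers of the comparison table were joined to the log2 CPM rows by row order, after the symbols of all rows had been checked. Fold differences were checked only for rows with a mean of 0 or more. Of these rows, 99.76% to 99.85% per comparison lay within 0.05 log2 units of the authors' value.

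All 9 libraries entered a single linear model of the deposited log2 CPM, with group means as its terms and moderation along an intensity trend (limma 3.58.1, R 4.3.3). Each two-sided p was adjusted after Benjamini and Hochberg for 27548 rows and called under 0.05. The model was tested on simulated data. A fold change on this scale understates the change of genes with few reads. Of the values under the lowest steps 32.5% to 34.2% were whole reads (tolerance 0.01 of a read), so no counts were rebuilt. Precision comes from 3 libraries per group, and intervals are limma's 95% intervals.

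Gene types and coordinates came from GENCODE 29 (GRCh38), matched by identifier, with SNHG32 matched through its older symbol. Shared sequence was the share of 31-base words of a member's transcripts that occur in transcripts of another gene. Promoters came from RefSeq (GRCh38.p14). The neighbour was the closest protein-coding gene with a mean of 0 or more. Members named were those past the threshold without overlap of the groups, SNHG32, and those nearest the level threshold, and in practice all 10 were given. List examples were the genes with the greatest change in each direction past the threshold. The sequence-sharing genes, which share words with a member, and the neighbours shown in detail were chosen after their values were seen. The members and lists were chosen with earlier results of these data known. Alternatives were other scalings, filters, fits and level thresholds, leaving out each library, other choices of rows and the authors' own calls. Summing the rows of a symbol was added after seeing the data. No Y-linked gene is reported, and some genes of the marker and decay lists are not reported here.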

Additional observations from a re-analysis of the deposited data

How the results depend on the processing

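The count of members lower in TLX+siCTL against CTL+siCTL was 4, 2 with quantile normalization, and 2 to 4 with 1 library left out (2 without S1, S2 or S5). The count lower in TLX+siTLX against TLX+siCTL was 5, and 3 without an intensity trend, 3 in a fit of the 2 groups alone, 9 with every row of a symbol counted (SNHG32 then counts 4 times and LINC02210 as 2), and 2 to 5 with 1 library left out (2 without S4 or S6, 3 without S8). The count higher there was 1, and 0 with members of a mean of at least 1, since LINC01085 is then no member. In TLX+siTLX against CTL+siCTL 5 were lower, or 9 with every row, and 0 were higher, or 0 to 1 with 1 library left out (LINC00869 without S8). The F test called 8, and 6 to 8 with 1 library left out. The cause of these shifts was not tested where the construction does not show it.

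Of 510 member values under an alternative 468 kept direction and side of the threshold, 33 lost a call and 3 gained one. The 6 that changed sign were not called: SNHG32 in TLX+siCTL against CTL+siCTL (-0.0155 to 0.0423 with 1 library left out, below 0 without S3), LINC00680 there (-0.0148 to 0.10, below 0 without S5), LINC01347 in TLX+siTLX against TLX+siCTL (-0.16 to 0.0379, above 0 without S7), and LINC00674 in that comparison (-0.26 to 0.35, below 0 without S4 or S7, and -0.0867 with quantile normalization). The median of rows with a mean of 0 or more moved by at most 0.05 with either scaling. No paired analysis was possible because the columns carry only a running number that no label ties to a replicate number. The 95% intervals of LINC00674, LINC01085 and LINC01347 are the widest of the 10 members.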
